A study of Mus musculus with 3 samples.

Results

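A set of 9 genes of the protease system that loosens the outer epidermis was examined in single-cell libraries of mouse dorsal skin, namely the kallikreins *Klk5*, *Klk6*, *Klk7*, *Klk8*, *Klk10* and *Klk11* and the inhibitors *Spink5*, *Serpina12* and *Wfdc21*. They were chosen by name, with earlier results of these data known, and all 9 were listed in the matrices, among 19927 gene symbols. The 3 libraries came from P18 mice, when the follicles of the back enter their first regression, and hold cells scraped from trypsin-treated skin and captured in droplets. The 2 control libraries were from *Vdr* flox/flox mice, and the third was from *Vdr* flox/flox; Krt14cre mice (*Vdr* cKO), in which Cre driven by the keratin 14 promoter removes 1 exon of the vitamin D receptor gene in keratinocytes. Both groups thus carry the floxed allele and only the *Vdr* cKO carries Cre, so that Cre and the deletion cannot be told apart. The skin of 3 male mice was pooled for each library, and single mice cannot be separated.

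After removal of barcodes with under 200 genes or over 20% mitochondrial counts, 1480, 1658 and 2622 cells were kept for the first control, the second control and the *Vdr* cKO, with 18802408, 28690129 and 30954897 counts and a median of 4190, 4492.5 and 4055 counts per cell. They were kept from 2788, 2460 and 2782 deposited barcodes, and a median of 377, 502 and 688.5 genes was detected per cell. More genes were thus detected per cell in the *Vdr* cKO at a like number of counts. The part of this in differences between libraries was not tested. Without the 5% of cells with the most counts, 9036963, 17853714 and 18035031 counts were left. A small share of deep cells thus held much of the summed counts. Between 60 and 85 barcodes of each library were also found in another library. *Vdr* was at 40.7 and 35.9 CPM (a gene's summed counts, scaled to a common library total) in the controls and at 80.8 CPM in the *Vdr* cKO, but counts per gene do not show the deleted exon and so do not check the genotype. *Xist*, the RNA made from the inactive X chromosome of females, had no count in the controls, which, at 3 counts of the total, allows up to 0.160 and 0.105 CPM, and was at 142 CPM in the *Vdr* cKO, where 740 of 2622 cells held a count. Since male mice were stated, it is called the labelled *Vdr* cKO library, and sex and genotype cannot be told apart in any difference between libraries.

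Kallikreins are secreted serine proteases that are made as inactive precursors by suprabasal keratinocytes and released into the spaces between the cells of the outer epidermis. There they cut the desmosomal proteins that hold corneocytes together, and so allow dead cells to be shed. *Klk5* encodes a trypsin-like protease that can activate itself and the precursors of KLK7 and KLK8, and *Klk7* encodes the chymotrypsin-like protease of the pathway. *Spink5* encodes LEKTI, a precursor cut into fragments that inhibit KLK5 and KLK7, and its loss in patients gives Netherton syndrome, in which corneocytes detach too early. *Serpina12* encodes vaspin, a serpin that inhibits KLK7, and *Wfdc21* encodes a small secreted protein with the WAP fold of elafin and SLPI.

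The 6 kallikrein genes of the set lie on the plus strand of chromosome 7 within 76578 bases (GRCm38, chr7:43774604-43851181), in the order *Klk11*, *Klk10*, *Klk9*, *Klk8*, *Klk7*, *Klk6* and *Klk5*, with between 819 and 9940 bases from each gene to the next. *Spink5* is on chromosome 18, *Serpina12* on the minus strand of chromosome 12 (chr12:104028769-104044443) and *Wfdc21* on chromosome 11 (chr11:83746940-83752642). A processed transcript on the minus strand, 2310002F09Rik, overlaps *Klk8*, *Klk9*, *Klk10* and *Klk11*. It was at 1.12, 2.30 and 3.94 CPM, and as the use of strand in the counting was not given in the sources used here, reads of these genes and of that transcript cannot be told apart.

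**Figure D1:**
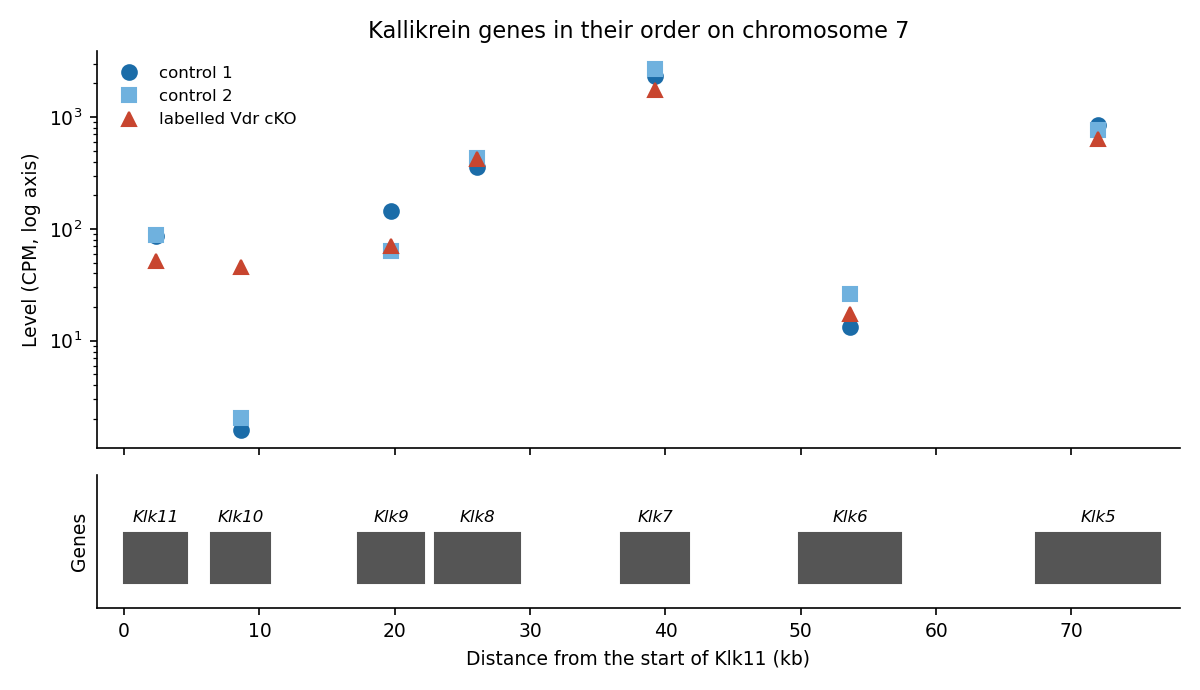
Level of the 7 kallikrein genes in CPM (upper panel, log axis, 1 point per library) at their distance in kb from the start of *Klk11* (lower panel, gene bodies as boxes). *Klk10* is at 45.7 CPM in the labelled *Vdr* cKO library and at 1.60 and 2.02 CPM in the controls, where its neighbours *Klk11* and *Klk9* are at 51.8 and 70.3 CPM in that library.

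The sequences upstream of 3 starts are shown because *Klk10* differed most between the libraries, and *Klk7* and *Serpina12*, a protease and its inhibitor, rose together with *Lor*. They were taken from RefSeq on GRCm38.p6 (*Klk7*, chr7:43811044-43811293, plus strand, *Klk10*, chr7:43780804-43781034, plus strand, and *Serpina12*, chr12:104044444-104044693, minus strand), are written 5′ to 3′ and end before the annotated start. Capitals mark the letters TATAA or their reverse complement TTATA, which overlap in *Klk10*.
Klk7: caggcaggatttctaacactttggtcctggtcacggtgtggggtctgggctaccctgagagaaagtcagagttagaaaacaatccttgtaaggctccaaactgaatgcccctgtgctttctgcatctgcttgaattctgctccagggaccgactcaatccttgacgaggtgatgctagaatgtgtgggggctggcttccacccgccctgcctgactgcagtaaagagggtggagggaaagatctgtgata
Klk10: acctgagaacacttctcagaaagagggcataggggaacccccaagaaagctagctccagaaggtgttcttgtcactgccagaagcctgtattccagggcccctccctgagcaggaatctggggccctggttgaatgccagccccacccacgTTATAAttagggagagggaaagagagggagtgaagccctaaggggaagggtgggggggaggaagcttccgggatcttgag
Serpina12: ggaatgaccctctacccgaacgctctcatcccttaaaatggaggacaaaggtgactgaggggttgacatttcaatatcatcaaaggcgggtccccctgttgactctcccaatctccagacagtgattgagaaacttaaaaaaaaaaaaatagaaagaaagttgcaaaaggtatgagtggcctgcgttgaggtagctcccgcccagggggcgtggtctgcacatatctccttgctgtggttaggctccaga
The RefSeq promoter table held 7 of the 9 genes, and *Spink5* and *Wfdc21* were not among them. In the 250 bases before the start, searched on both strands, none of the 7 held the AP-1 letters TGANTCA, the nuclear receptor half-site AGGTCA, the Grainyhead-like letters AACCGGTT or the KLF letters CCACACCC. These were found in 6.75%, 14.02%, 0.116% and 3.20% of 32851 promoters, respectively. Of the 7 genes only *Klk10* held TATAA, which 22.8% of all promoters held. Absence of a match says only that these letters are not in this window.

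The first question was how the levels differed between the libraries. *Klk10* was the member that stood apart, being higher in the labelled *Vdr* cKO library, whereas *Spink5*, *Klk7*, *Klk11*, *Serpina12* and *Klk5* were lower there than in both controls by smaller amounts. *Klk8*, *Klk6* and *Wfdc21* lay between the controls. With 1 library carrying the *Vdr* cKO label there is no replicate of it and no test was made, and the distance between the 2 controls is the only measure of spread.

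*Klk5* was at 846 and 760 CPM in control 1 and control 2 and at 640 CPM in the labelled *Vdr* cKO library, a log2 difference of -0.33 from the control mean, where the controls differed from each other by 0.15. *Klk7* was at 2350, 2704 and 1761 CPM, a log2 difference of -0.52 with controls 0.20 apart. Both initiating and executing proteases of the pathway were thus below both controls, *Klk5* only by 1.19-fold against the nearer control and *Klk7* by 1.33-fold. *Klk8*, whose trypsin-like product is also known from the brain as neuropsin, was at 361, 430 and 419 CPM. *Klk11*, a further trypsin-like member, was at 86.9, 87.5 and 51.8 CPM, 1.68-fold below the nearer control, although the controls were almost equal. *Klk6* was at 13.4, 26.1 and 17.4 CPM, and its level rested on few cells, since 1 cell held 34.9%, 24.3% and 15.4% of its counts.

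Among the inhibitors, *Spink5* was at 8756, 9539 and 5107 CPM, a log2 difference of -0.84 from the control mean with controls 0.12 apart. Among the inhibitors of the set it alone lay more than 1.5-fold below both controls, at 1.71-fold below the nearer one. Of the other inhibitors listed further on, *Serpinb12* (175, 145 and 81.3 CPM, 1.79-fold) and *Wfdc5* (182, 210 and 116 CPM, 1.57-fold) did so as well. *Serpina12* was at 721, 871 and 511 CPM, 1.41-fold below the nearer control. *Wfdc21* was at 831, 2211 and 1166 CPM. The controls of *Wfdc21* were further apart, at 1.41 on the log2 scale, than either was from the labelled *Vdr* cKO library.

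*Klk10*, whose protein is a secreted kallikrein of the same family, was at 1.60 and 2.02 CPM in the controls and at 45.7 CPM in the labelled *Vdr* cKO library, 22.6-fold above the higher control. The control levels rested on 30 counts in 7 cells and 58 counts in 9 cells, and the *Vdr* cKO level on 1416 counts in 205 cells, of which the highest cell held 4.87%. The 95% Poisson intervals of the levels were 1.08 to 2.28, 1.54 to 2.61 and 43.4 to 48.2 CPM. These intervals treat each count as a separate molecule and leave out the spread between libraries. Copies of a molecule made by PCR may have been counted, and all Poisson intervals given here would then be too narrow even for counting error. When each gene was counted at most once per cell, the log2 difference of *Klk10* was 3.21 in place of 4.06.

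**Figure D2:**
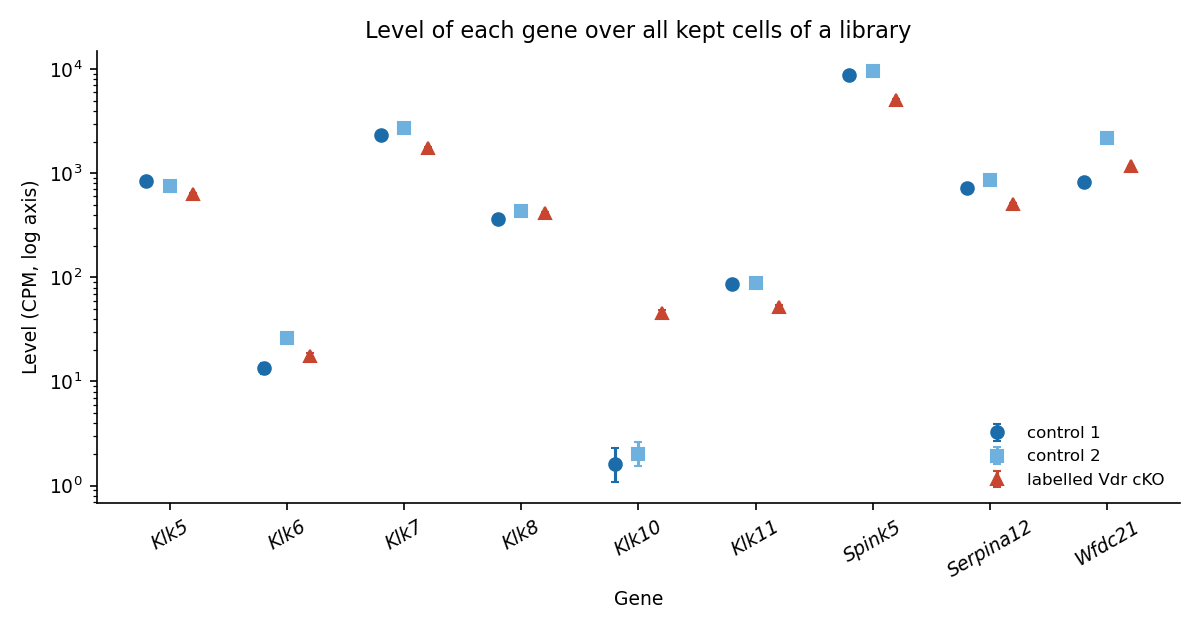
Level of the 9 genes in CPM (log axis) in control 1, control 2 and the labelled *Vdr* cKO library, with 95% Poisson intervals that are mostly smaller than the points. *Klk10* rises from 1.60 and 2.02 to 45.7 CPM, and *Spink5*, *Serpina12*, *Klk5*, *Klk7* and *Klk11* each lie lower in the labelled *Vdr* cKO library than in both controls.

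Of the 7 members that reached 50 CPM in any library, none differed from both controls by over 2-fold, where 3.88% of 3919 such genes were higher and 1.15% lower. The same count for control 1 gave 37 genes higher and 29 lower than both other libraries, and for control 2 it gave 9 and 59, with no member among them. Of the 7, 5 were below both controls by any amount, where 35.9% of the genes were. None was above both, where 38.4% of the genes were, and 2 lay between the controls, where 25.7% did. With the limit set at 10 CPM all 9 members were counted, and only *Klk10* passed, where 7.97% of 8806 genes were higher and 1.44% lower. The median log2 difference was -0.38 over the 9 members, -0.52 over the 7 of them at 50 CPM, and 0.00 over the 3919 genes at 50 CPM. Scaling by edgeR TMM or DESeq2 median-of-ratios factors moved the median of all genes to -0.18 and -0.21, and the split of genes over 2-fold from 152 higher and 45 lower to 107 and 86, and to 100 and 96. Over 12 alternatives the log2 difference stayed between 2.24 and 4.25 for *Klk10*, between -1.05 and -0.75 for *Spink5* and between -0.73 and -0.42 for *Klk7*, and changed sign for *Klk6*, *Klk8* and *Wfdc21*.

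The share of cells with a count, with every cell thinned to 1000 counts, gave the same picture for *Klk10* and *Spink5*. *Klk10* was found in 0.273%, 0.250% and 3.32% of cells, with an exact binomial interval of 2.66 to 4.09% in the labelled *Vdr* cKO library and an upper bound of 0.697% in the controls. Without thinning the shares were 0.473%, 0.543% and 7.82%. *Spink5* was found in 77.3%, 82.7% and 64.4% of thinned cells. The labelled *Vdr* cKO library lay outside the intervals of both controls. The intervals of the 2 controls, 75.1 to 79.4% and 80.8 to 84.5%, did not overlap either. Cells are not replicates, so these intervals leave out the spread between libraries. *Klk7* was found in 39.6%, 42.9% and 37.6%, and *Klk5* in 21.3%, 28.1% and 20.7%.

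Part of these shares can come from free RNA in the droplets or from doublets, in which a droplet caught more than 1 cell. Cells with at least 3 of the 4 antigen-presenting markers *Cd74*, *H2-Ab1*, *H2-Eb1* and *Cd207*, which should lack these keratinocyte genes, numbered 4, 10 and 30. They were picked before thinning and no doublets were removed, so free RNA and doublets cannot be told apart in them. Their median depth in the controls was 7502 and 41365.5 counts, against 4187.5 and 4457 in the other cells. In the labelled *Vdr* cKO library their median depth was 9975 counts against 4009 in the other cells, and after thinning 18 of the 30 held *Spink5*, against 64.4% of the others. *Klk5* was found in 36.7% of them against 20.5%, *Klk7* in 36.7% against 37.6%, and *Klk10* in 1 cell of 30 against 3.32%. A count of a member in a single cell is therefore not read as expression by that cell.

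The make-up of the libraries differed as well. The summed level of 6 basal markers was 4587, 3267 and 12427 CPM, and that of 5 spinous markers 67547, 77481 and 51550 CPM. The 7 granular markers summed to 18501, 18061 and 14953 CPM, mostly from *Lor* at 13227, 12928 and 11930 CPM (log2 difference -0.13). The log2 differences of the others were -1.29 for *Lce1a1*, -1.10 for *Hrnr*, -1.06 for *Flg* and -0.98 for *Lce1a2*. For *Flg2* and *Ivl* they were -0.59 and -0.55, where that of *Spink5* was -0.84. Inner root sheath markers summed to 0.585, 2.54 and 230 CPM, with 4 of the 5 at 0 in control 1 (*Krt25*, *Krt27*, *Krt28* and *Krt71*) and 2 at 0 in control 2 (*Krt25* and *Krt71*), and upper follicle markers to 1005, 1185 and 3561 CPM. In summed counts, fewer cells of a type and less RNA per cell cannot be told apart. The libraries were therefore also compared within groups of cells cut at the same limits of *Lor*. *Lor* encodes loricrin, the main protein of the cornified envelope, made in the granular layer.

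Cells were placed in 5 equal groups (quintiles) by their CPM of *Lor*, with the limits set over all libraries. *Spink5* and *Klk7* were below both controls in each of the 5 quintiles, *Klk11* and *Serpina12* in 4 and *Klk5* in 3. *Wfdc21*, between the controls over all cells, was below both in 3 as well, and *Klk6* in 2. The quintiles divide the same counts that gave the levels over all cells. The share of all genes below both controls by quintile was not computed. In the 4 classes of cells by *Krt10* and *Lor* described further on, *Spink5* and *Klk11* were below both controls in all 4. *Klk7* and *Klk5* were so in 3, *Serpina12* in 2, and *Klk6*, *Klk8* and *Wfdc21* in 1. In the class low in both, however, *Klk11* was at 110, 37.7 and 37.6 CPM, and so all but equal to control 2. *Spink5* was at 7405, 7128 and 2982 CPM in the lowest quintile, and at 11060, 13377 and 7335 CPM in the highest. *Krt14*, a basal keratin, was at 790, 627 and 2567 CPM in the lowest quintile and *Krt10* at 37821, 35974 and 20482 CPM, so that these cells differed in more than *Spink5*, and the part of this in the *Spink5* level was not tested. The log2 difference of *Spink5* ranged from -1.28 in the lowest quintile to -0.62 in the fourth. *Klk7* was at 896, 891 and 540 CPM in the lowest quintile and at 4789, 6374 and 3543 CPM in the highest. In the highest quintile *Lor* itself was at 52651, 50868 and 40910 CPM, and *Krt14* at 549, 564 and 1427 CPM. In the class with low *Krt10* and high *Lor*, *Lor* was at 63917, 67187 and 28657 CPM. Shared limits thus did not make the cells of a group alike in *Lor*, and the part of this in the member levels was not tested.

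*Klk10* was above both controls in all 5 quintiles, with 70.2 CPM in the lowest and between 32.7 and 40.6 CPM in the others of the labelled *Vdr* cKO library. Its level in the controls was at most 4.56 CPM in any quintile. The 85 thinned cells of that library with a *Klk10* count were set against the 2477 without one. Basal markers summed to 14714 against 12319 CPM, granular markers to 10836 against 15148 CPM, inner root sheath markers to 94.5 against 236 CPM and upper follicle markers to 5089 against 3489 CPM. Antigen-presenting markers summed to 1434 against 225 CPM. Of single genes, with 10 CPM added, *Cd207* differed most, at 124 against 3.08 CPM, followed by *H2-Ab1* at 545 against 60.5 CPM. Only 1 of the 85 cells held at least 3 of the 4 antigen-presenting markers. The part of antigen-presenting cells in the *Klk10* level was not tested.

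**Figure D3:**
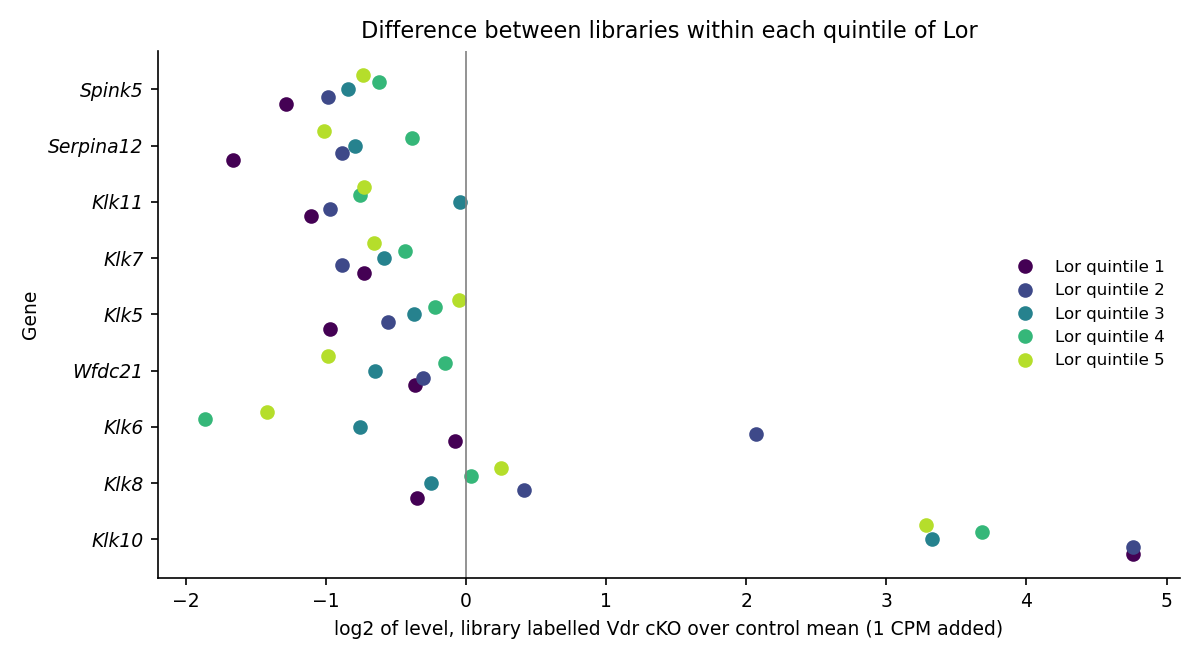
Log2 of the level in the labelled *Vdr* cKO library over the control mean, with 1 CPM added, for each gene (rows) within each quintile of *Lor* (5 points, dark for the lowest). All 5 points of *Klk10* lie above 3, all 5 of *Spink5* and *Klk7* lie below 0, and those of *Klk8* fall on both sides.

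The second question was where along differentiation each member was found. Here each library served as its own control, and the top and bottom quintiles of *Lor* were compared with edgeR on counts summed per library, with p-values adjusted over all genes tested and a threshold of 0.05. *Lor* quintiles separated the members into a group that rose strongly, namely *Wfdc21*, *Serpina12* and *Klk7*, a group that rose moderately, namely *Klk5*, *Klk8* and *Spink5*, and 3 genes that did not pass, namely *Klk6*, *Klk10* and *Klk11*. Thus 6 of 9 members were higher in *Lor*-high cells, where 4.68% of 10619 genes were. No member was lower, where 0.48% of genes were, and none was lower at an unadjusted p of 0.05 or with DESeq2.

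*Serpina12* rose from 120 to 1957 CPM in control 1, from 76.6 to 2278 CPM in control 2 and from 30.4 to 1048 CPM in the labelled *Vdr* cKO library. The log2 fold was 5.03 (SE 0.28, adjusted p = 2.52e-07), and the bottom and top quintiles did not overlap. *Wfdc21* rose from 97.1 to 2366, from 124 to 6032 and from 85.8 to 2124 CPM, with a log2 fold of 5.29 (SE 0.29, adjusted p = 2.31e-07). *Klk7*, the protease that vaspin inhibits, rose in all 3 libraries with a log2 fold of 3.01 (SE 0.21, adjusted p = 1.63e-06).

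*Klk5*, the trypsin-like activator, had a smaller log2 fold of 1.36 (SE 0.26, adjusted p = 0.00687). In control 2 it was at 625 CPM in the bottom quintile, 1055 CPM in the fourth and 733 CPM in the top, so that it did not rise throughout. *Klk8* rose by 1.30 (SE 0.24, adjusted p = 0.00578) and *Spink5* by 1.28 (SE 0.19, adjusted p = 0.00106) on the log2 scale. Neither rose throughout in control 1. There *Klk8* was at 232 CPM in the bottom quintile, 724 CPM in the third and 484 CPM in the top. *Spink5* was at 7405 CPM in the bottom quintile, 6655 CPM in the fourth and 11060 CPM in the top. From CPM alone, the library-wise log2 differences of *Spink5* were 0.58, 0.91 and 1.30. *Klk11* had a log2 fold of 0.53 (adjusted p = 0.63), *Klk10* of 0.25 (adjusted p = 0.949) and *Klk6* of 2.25 (adjusted p = 0.351), which does not show that they are alike in the 2 groups.

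The bottom quintile held deeper cells, with a median of 17381, 17534 and 7179 counts against 3730, 3578 and 4405 in the top. With each cell thinned to 1000 counts, the log2 folds of *Wfdc21*, *Serpina12* and *Klk7* were 2.99, 3.42 and 1.87 and remained past the threshold. In every test with thinned cells the limits of *Lor* and *Krt10* were set anew on the thinned counts, and cells under 1000 counts were left out. The groups thus need not hold the same cells as before. TMM factors moved the median log2 fold of all genes by 0.35 against plain library totals, under which 342 genes were higher and 129 lower in place of 497 and 51. *Klk5* and *Klk8* were then no longer past the threshold, with log2 folds of 1.01 and 0.95. Without a term for the library, *Klk5*, *Klk8* and *Spink5* did not pass either (adjusted p = 0.097, 0.0593 and 0.259).

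**Figure D4:**
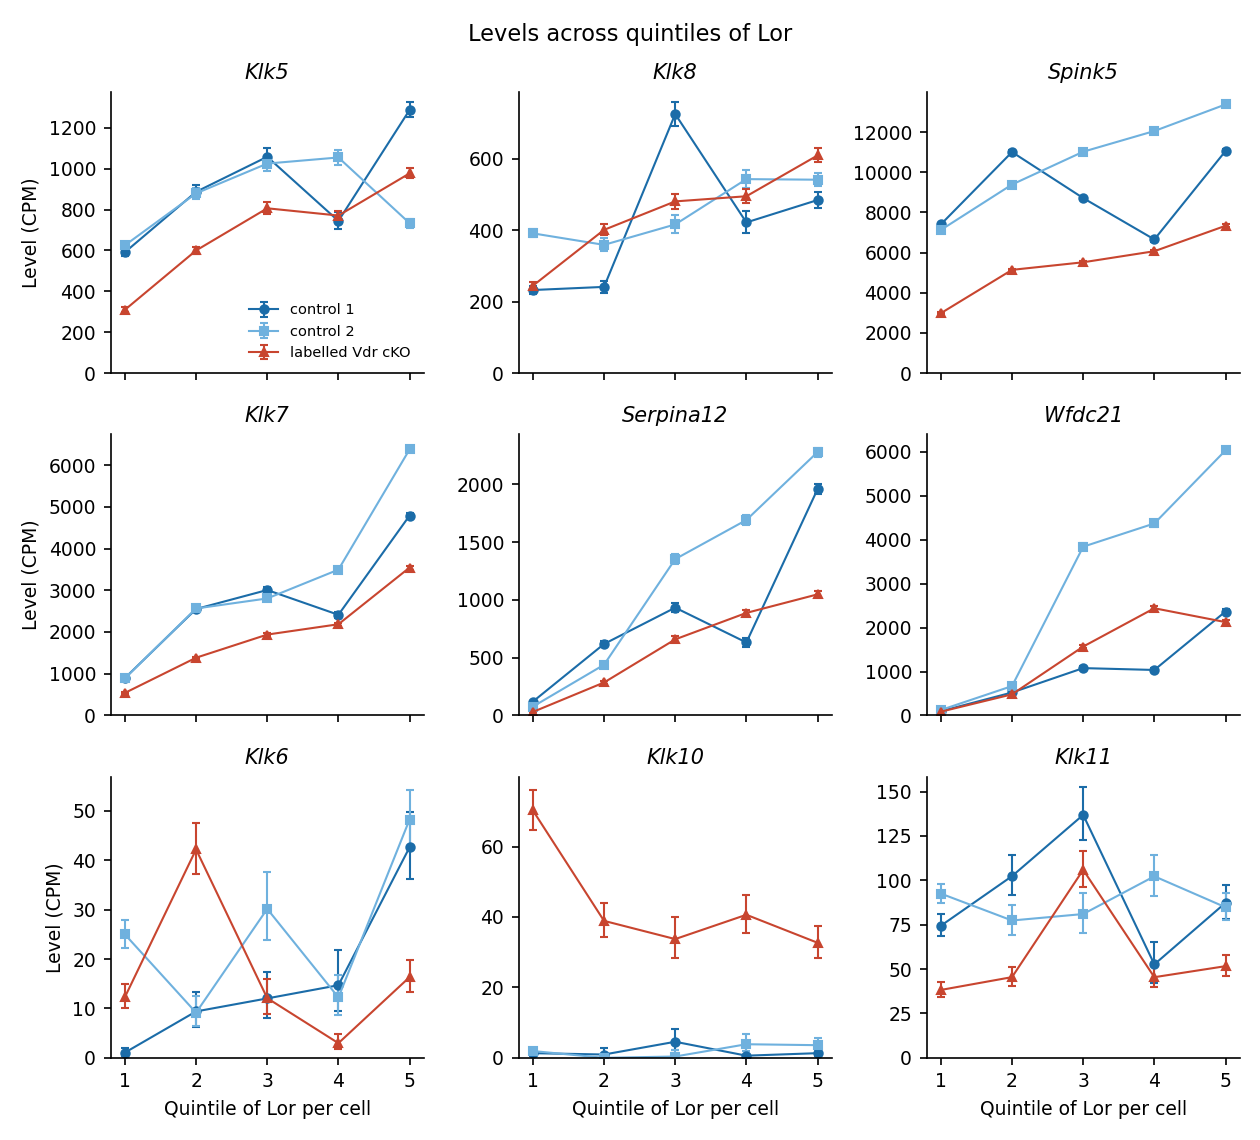
Level in CPM of each gene across the quintiles of *Lor*, lowest to highest, in the 3 libraries, with 95% Poisson intervals. *Serpina12*, *Wfdc21* and *Klk7* are higher in the top than in the bottom quintile of every library, with dips between some neighbouring quintiles, *Klk10* is near 0 in the controls, and *Spink5* and *Klk7* of the labelled *Vdr* cKO library run below both controls throughout.

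To separate an early from a late step, cells were placed in 4 classes by the median of *Krt10*, the keratin of suprabasal cells, and the median of *Lor*. *Spink5*, *Klk8* and *Klk5* were higher in cells with high *Krt10* and low *Lor* than in cells low in both. *Wfdc21* and *Serpina12* were higher again once *Lor* was high. The classes were not sorted into epidermis, follicle and gland, so cell type and a step of differentiation cannot be told apart. Sebaceous markers summed to 21686, 16052 and 4770 CPM in cells without a *Spink5* count after thinning, against 1853, 901 and 1923 CPM in the others. With low *Krt10* and high *Lor*, *Spink5* was at 11246, 13566 and 4641 CPM. At the *Krt10* step 4 of 9 members rose, where 2.29% of 11923 genes did, and at the *Lor* step 2 of 9 rose, where 0.327% did. No member fell at either step, also at an unadjusted p of 0.05 or with DESeq2, where 1.27% of genes fell at the *Krt10* step. At the *Lor* step no gene of all tested was lower by edgeR, with 105 at an unadjusted p of 0.05 and 9 with DESeq2.

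*Spink5* went from 3407 to 10459 CPM in control 1, from 3115 to 9494 CPM in control 2 and from 2025 to 6222 CPM in the labelled *Vdr* cKO library at the *Krt10* step. The log2 fold was 1.73 (SE 0.25, adjusted p = 0.000639), and the library-wise log2 differences of 1.62, 1.61 and 1.62 were nearly identical. At the *Lor* step its log2 fold was 0.33 (adjusted p = 1.00). *Klk8* rose by 1.86 (SE 0.30, adjusted p = 0.00161) and *Klk5* by 1.71 (SE 0.29, adjusted p = 0.00256) at the *Krt10* step, and neither passed at the *Lor* step. Without the library term the *Krt10* step of *Spink5* was 1.72 and missed the threshold (adjusted p = 0.0569), and with thinned cells it was 0.69 (adjusted p = 0.0222).

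*Wfdc21* went from 293 to 1678, from 596 to 4921 and from 526 to 2462 CPM at the *Lor* step, with a log2 fold of 2.70 (SE 0.36, adjusted p = 0.00103). At the *Krt10* step its log2 fold was 0.89 (adjusted p = 0.208), and it passed there without the filter on low counts (0.86, adjusted p = 0.002). *Serpina12* passed at both steps, with 1.68 (SE 0.43, adjusted p = 0.0399) and 2.26 (SE 0.44, adjusted p = 0.0317). Its early step was not stable, since it was lost under 8 of 14 alternatives, including the removal of any 1 library (adjusted p from 0.0561 to 0.123), and was -0.01 with thinned cells. Its late step was lost without control 1 (adjusted p = 0.263), without the library term (adjusted p = 0.129) and with median-of-ratios factors (adjusted p = 0.0627). *Klk7* had 0.80 and 1.28 at the 2 steps (adjusted p = 0.282 and 0.255), and passed at the second without the labelled *Vdr* cKO library (adjusted p = 0.0342). Without the filter on low counts it passed at both, with 0.78 and 1.24 (adjusted p = 0.00224 and 3.40e-08). With thinned cells *Klk8* no longer passed at the *Krt10* step, at 0.73 (adjusted p = 0.147). With median-of-ratios factors 176 genes rose and 162 fell at the *Krt10* step, and with plain totals 228 and 191, in place of 273 and 152.

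**Figure D5:**
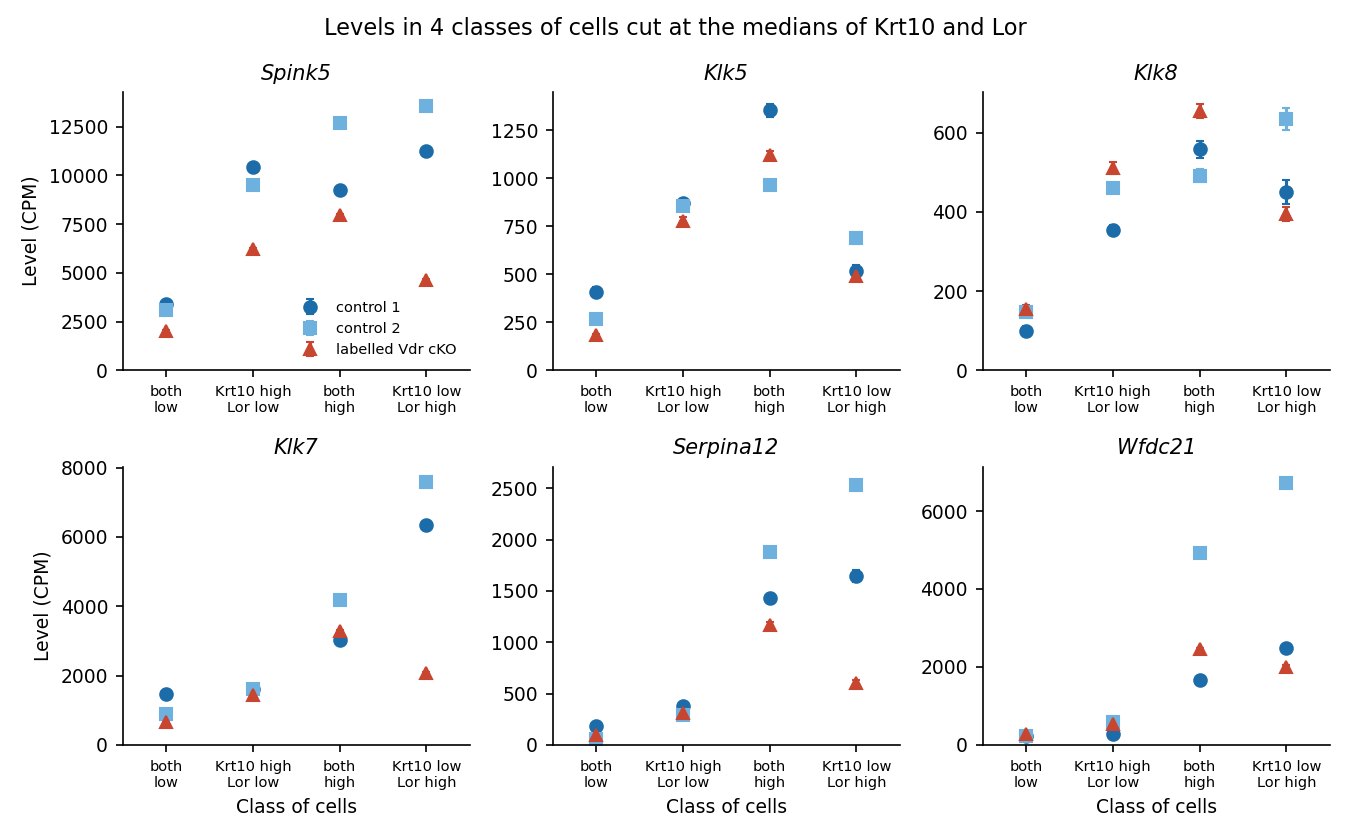
Level in CPM of 6 genes in 4 classes of cells cut at the medians of *Krt10* and *Lor*, with 1 point per library and 95% Poisson intervals. *Spink5*, *Klk5* and *Klk8* are higher in the second class than in the first, whereas *Serpina12* and *Wfdc21* are highest in the 2 classes with high *Lor*.

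Along *Krt10* alone only *Klk5* passed, with a log2 fold of 2.15 between the top and bottom quintiles (SE 0.46, adjusted p = 0.0112), where 1.64% of 10231 genes were higher and 2.1% lower. *Klk5* went from 289 to 949 CPM in control 1, from 291 to 948 CPM in control 2 and from 136 to 1165 CPM in the labelled *Vdr* cKO library. *Klk7* and *Wfdc21* went down with *Krt10* in both controls and up in the labelled *Vdr* cKO library. *Klk7* went from 3187 to 1945, from 4053 to 2099 and from 940 to 2322 CPM. The bottom *Krt10* quintile of the controls was rich in *Lor*, at 33661 and 36452 CPM, against 11663 CPM in the labelled *Vdr* cKO library. In the controls alone *Klk7* and *Wfdc21* were lower in the top quintile, by edgeR log2 folds of -0.95 (adjusted p = 0.0273) and -1.22 (adjusted p = 0.00614). There 379 of 10078 genes were lower and 241 higher. The 2 genes were singled out because they fell in these same controls, so this test is not separate support for the fall.

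Other genes of the pathway were read from fixed lists. Of 15 other kallikreins 3 were in the matrices, and *Klk9*, which lies between *Klk10* and *Klk8*, was at 144, 63.7 and 70.3 CPM and rose with *Lor* by 5.07 on the log2 scale (adjusted p = 1.90e-06). *Klk13* was at 7.50, 0.767 and 0.646 CPM, and *Klk12* had a count only in the labelled *Vdr* cKO library, at 0.485 CPM. Of 17 other epidermal proteases 11 reached 50 CPM. None of the 11 was over 2-fold from both controls, where 3.88% of genes at 50 CPM were higher and 1.15% lower. Of 16 tested along *Lor* 7 rose, namely *Asprv1*, *Casp14*, *Blmh*, *Ctsa*, *Ctsb*, *Ctsh* and *Ctsl*, where 4.68% of all genes tested were higher. The filaggrin-cutting protease gene *Asprv1* was at 2377, 2009 and 1917 CPM. *Blmh* was at 874, 965 and 808 CPM, *Ctsd* at 540, 510 and 609 CPM and *Ctsl* at 247, 269 and 274 CPM.

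Of 25 other protease inhibitors 23 were listed. None of the 11 at 50 CPM was over 2-fold from both controls, where 3.88% of genes at 50 CPM were higher and 1.15% lower. *Serpinb8*, *Csta1* and *Wfdc5* rose with *Lor* among 14 tested, where 4.68% of all genes tested were higher. *Cst6*, a cystatin that inhibits cathepsins, was at 906, 2025 and 3227 CPM, *Serpinb5* at 1485, 1365 and 1024 CPM, *Cst3* at 813, 776 and 831 CPM and *Cstb* at 299, 372 and 455 CPM. Of the 11 inhibitors, 5 were above both controls, 5 below both and 1 between, where 38.4%, 35.9% and 25.7% of genes at 50 CPM were.

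Among 7 listed genes for kallikrein substrates and the receptor PAR2 (*F2rl1*), 2 were over 2-fold below both controls, where 1.15% of genes at 50 CPM were. The desmoglein gene *Dsg1b* was at 190, 150 and 27.0 CPM, and *Flg*, the gene of filaggrin, was at 880, 834 and 412 CPM. *Dsg1a* was at 1706, 1947 and 881 CPM, *Cdsn* at 1059, 993 and 760 CPM and *Flg2* at 1855, 2206 and 1350 CPM. The median log2 difference of the 7 was -0.999. At the *Krt10* step *Dsg1a*, *Dsc1* and *Cdsn* rose, where 2.29% of all genes tested did, and *Dsg1b* did not pass (log2 fold 1.49, adjusted p = 0.0973). Between *Krt10* quintiles *Dsg1a*, *Dsc1* and *Dsg1b* were higher, the last by an edgeR log2 fold of 2.27 (adjusted p = 0.03). *Flg* was lower there (-2.25, adjusted p = 0.0497), where 1.64% of genes were higher and 2.1% lower. At the *Lor* step *Flg* and *Flg2* rose, where 0.327% of all genes tested did. *Dsg1a* and *Dsg1b* are close copies whose reads the counting could have split, and their single levels are uncertain.

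Likeness was described over 27 profiles, 9 groups of cells cut by *Krt10* and *Lor* in each library, among 3919 genes. The gene most like *Serpina12* was *Wfdc21*, and the reverse (Pearson r = 0.952), followed by *Flg2* and *Cnfn* for *Serpina12* (r = 0.921 and 0.917). *Klk7* was most like *Cnfn* (0.951), *Lypd5* (0.929) and *Cnn3* (0.919). *Spink5* was most like the suprabasal genes *Dmkn* (0.963), *Krtdap* (0.936) and *Hspb1* (0.933), and *Klk8* was most like *Sbsn* (0.925), *Dmkn* (0.918) and *Hspb1* (0.904). *Klk5* was most like *Mboat2* (0.915), *Gltp* (0.912) and *Fam129b* (0.900), and *Klk11* was most like *Chmp5* (0.852), *Skint6* (0.798) and *Defb1* (0.775). The profiles share libraries and the genes that cut them, and are not independent.

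Pairs of members in single cells were described after thinning to 1000 counts. Of 36 pairs, 21 were found together more often in all 3 libraries than the product of their shares within *Lor* quintiles gives. The other 15 were not, among them *Klk5* with *Klk11* and *Klk11* with *Serpina12*. Each of these 15 held *Klk6*, *Klk10* or *Klk11*, which were found in few cells. For *Klk6* with *Klk10* in control 1 the product gives only 0.0395 cells. The share over pairs of other genes was not computed, so the count is not a trait of the members. *Klk5* and *Klk8* were both found in 56, 102 and 153 cells, where the product of their shares within *Lor* quintiles gives 40.1, 76.4 and 106. *Klk7* and its inhibitor gene *Serpina12* were both found in 130, 224 and 253 cells, where 99.5, 179 and 187 are given. *Klk10* and *Spink5* were both found in 58 cells of the labelled *Vdr* cKO library, close to the 54.7 given. A cell held 2.01, 2.48 and 2.03 of the 9 genes on average, and no cell held more than 7. These are descriptions of cells that share a library and may hold free RNA or be doublets.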

How the data were processed

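Single cells of P18 dorsal skin were measured in 3 droplet libraries (Nadia, RNAdia kit). The deposited values are counts per gene and barcode without normalization, made by the authors. The build named in the submitters' processing notes is mm10. The aligner, the annotation, the use of strand and the collapse of PCR copies were not given in the sources used here. Of the symbols, 97.6% matched GENCODE M21 on GRCm38.

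Cells were barcodes in which 200 or more genes were detected and no more than 20% of counts were mitochondrial. No doublet caller was run and no doublets were removed. The counts of all cells of each library were added up and given as CPM with exact Poisson intervals, and log2 differences were computed with 1 CPM added. Shares of cells were computed after thinning each cell to 1000 counts, with exact Clopper-Pearson intervals. Cells were binned by *Krt10* or *Lor*, which were left out of the totals, and counts summed per bin and library were tested with edgeR 4.0.16 (quasi-likelihood, TMM factors, library as a term, filterByExpr) in R 4.3.3, with Benjamini-Hochberg adjustment over all genes tested. An adjusted p under 0.05 was called. With library as a term, differences in level between libraries are taken up by that term. These p-values thus weigh a difference between bins against how much it varied from library to library. Separate mice are not resolved, so the spread between mice is left out. The libraries are both controls and the labelled *Vdr* cKO library, and so are not replicates of the same condition.

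All 9 members are named, with the 3 genes most like each member at 50 CPM and, from each list, up to 4 of the most abundant genes and those over 2-fold from both controls. The members and lists were chosen with earlier results of these data known. Alternatives included DESeq2 1.42.0, other scaling, cell limits, bins and thinning, and leaving out each library, and plain library totals were added after seeing the data. In simulated data the 2-fold count recovered 99 of 99 genes changed 4-fold and 1 of 101 changed 1.5-fold, which follows mostly from its limit. The edgeR test of *Lor* quintiles recovered 85 of 100 changed 4-fold and 9 of 96 changed 2-fold. The simulated counts for edgeR had a fixed dispersion that was not estimated from these libraries. Other steps used Python 3.11.15, numpy 2.4.6, scipy 1.17.1, pandas 2.3.3 and matplotlib 3.10.9.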

Additional observations from a re-analysis of the deposited data

Results flagged for a closer look

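*Klk7* and *Wfdc21* moved in opposite directions along *Krt10* in the controls and the *Vdr* cKO. The log2 level of *Klk7* in the top over the bottom quintile of *Krt10* was -0.71 and -0.95 in the controls and 1.30 in the labelled *Vdr* cKO library. That of *Wfdc21* was -0.77 and -1.44 in the controls and 1.42 in the labelled *Vdr* cKO library. Both differences were not tested, as there is 1 such library. *Lor* in the bottom quintile of *Krt10* was at 33661 and 36452 CPM in the controls and at 11663 CPM in the labelled *Vdr* cKO library, and its part in the difference was not tested. The bottom quintile held cells of a median of 6709, 6482 and 3704 counts, and the top quintile 4429, 5941 and 9231. No group had the 4 samples needed to look for a sample far from the others.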

How the results depend on the processing

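No paired analysis was possible because the control and *Vdr* cKO groups share fewer than 2 replicate numbers, while the comparisons of bins carried a term for the library. The median log2 difference of the members between libraries (-0.38) was -0.64 without the deepest 5% of cells, -0.57 with TMM and -0.60 with median-of-ratios factors, -0.55 with CPM averaged over cells, -0.61 with genes counted once per cell, and from -0.62 to -0.40 when 1 control was left out. Members over 2-fold from both controls were 0 at 50 CPM. There was 1 (*Klk10*, higher) without the deepest cells, where 144 of 4030 genes were higher, and with CPM averaged over cells, where 166 of 4112 were. The same held with genes counted once per cell (209 of 5765 genes higher) and at 10 CPM (702 of 8806). Over 1.5-fold there were 2, *Klk11* and *Spink5*, both lower, where 196 of 3919 genes were lower and 361 higher. The 197 genes over the fold were 829 at 10 CPM, 557 over 1.5-fold, and 344 to 380 with 1 control left out.

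Of genes past the threshold, the *Lor* quintiles gave 548, and 1054 with DESeq2, 226 with thinned cells and 338 without the deepest cells, with 3 members in place of 6 without the library term. The *Krt10* quintiles gave 383, and 1146 with DESeq2, 158 with thinned cells and 192 to 620 with 1 library left out. Without the filter 2 members were higher, where 273 of 17842 genes were. With 1 library left out 0 to 2 members were lower. The 2 were lower without the labelled *Vdr* cKO library, where 379 of 10078 genes were. The *Krt10* step gave 425, and 1011 with DESeq2, 682 without the filter (6 members in place of 4), 247 without the library term, 104 with thinned cells, 262 without the deepest cells and 100 to 415 with 1 library left out, with 2 members in place of 4 without the library term or with thinned cells. The *Lor* step gave 39, and 114 with DESeq2, 131 without the filter (3 members in place of 2), 23 without the library term, 15 with thinned cells and 13 to 66 with 1 library left out, with 1 member in place of 2 with median-of-ratios factors or without the library term, and 1 to 3 with 1 library left out. *Serpina12* at the *Krt10* step reversed to -0.00902 with thinned cells. The cause of these changes was not tested. In simulated data 2-fold changes were mostly missed.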
